A study of Mus musculus with 2 samples.

Results

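Genes that defend cells against oxidative stress, among them the thioredoxin system, the peroxiredoxins, the glutathione enzymes, the superoxide dismutases and the metallothioneins, were followed in pancreatic islets of male mice aged 6 weeks. The genes were chosen by name and known function, as a list of 36, with earlier results of these data known. A gene counted as measured when at least 1 probe set, the group of probes that reads a transcript, carried its symbol and no other. By that rule 32 of the 36 genes were measured, by 71 probe sets, out of 18193 genes measured by 34945 such probe sets. The transgenic sample held islets of mice that overexpress miR-141 and miR-200c, both microRNAs. The control sample held islets of C57BL/6 mice. The labels give no further allele or agent, no strain for the transgenic mice and no number of mice per sample. They name the source as beta cells and the tissue as islets. The transgenic sample's title begins with Rip, which from general knowledge of this study stands for the rat insulin promoter, active in beta cells. Each genotype was read by a single array (n = 1), so there is no replicate error and no test, and each difference describes these 2 arrays only.

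Reactive oxygen species are by-products of respiration and of protein folding. Superoxide dismutases turn superoxide into hydrogen peroxide, and catalase, the glutathione peroxidases and the peroxiredoxins reduce the peroxide. The last group draws its electrons from thioredoxin and the glutathione peroxidases from glutathione, and both carriers are recharged with NADPH. Beta cells are known for low levels of catalase and of glutathione peroxidase compared with liver, which is why they have long been studied as cells sensitive to peroxide. Txnip, a protein that binds and inhibits thioredoxin, is induced by glucose in beta cells and promotes their death, and it links this gene group to the subject of the series, beta cell survival in type 2 diabetes.

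The overexpressed microRNAs are shown here because their overexpression is the stated genotype difference. Their mature 3p forms are given from RefSeq (GRCm38.p6), with the seed, bases 2 to 8, in capitals. The mature sequences lie on the minus strand at chr6:124717917-124717938 (miR-141-3p) and chr6:124718324-124718346 (miR-200c-3p). The 7 bases of the seed are not identical, so the microRNAs belong to separate seed groups.
mmu-miR-141-3p: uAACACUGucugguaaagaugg
mmu-miR-200c-3p: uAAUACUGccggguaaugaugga

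Every value is a log2 expression value made by RMA, which removes background, brings both arrays to the same distribution and combines the probes of each set. A difference is always the transgenic minus the control log2 value, so a difference of 1 is 2-fold higher in transgenic islets. A gene was read from 1 probe set, that with the highest mean over the arrays. It was kept when at least 1 array reached the floor, 5.76, the median of all values, and each of the 29 members kept reached it on both arrays. The number of arrays limits the precision, and differences are compressed near the floor and near the top of the scale, which ended at 15.02 here.

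Both samples carried strong islet signal: insulin 2, Ins2, was at 14.95 in transgenic and 15.02 in control islets. Acinar markers were also strong, since the 6 that were measured, digestive enzymes such as Cpa1 at 14.17 and 14.04, had summed linear signals of 92431 and 86114. Their median difference was 0.094. Of 10 kept macrophage markers 9 were higher in the transgenic sample (median 0.82), and the summed linear signal was 9620 against 6226, with Itgam and Fcgr1 below the floor. Of 7 kept markers of stellate cells and fibroblasts 6 were higher (median 0.89), with sums of 6739 and 3606 and with Col1a1 and Pdgfra below the floor. The 7 beta cell markers had a median of -0.0083, with sums of 83222 and 84925. They ran from -0.81 (Ucn3, 1.75-fold lower) to 0.32 (Pdx1), and Ins2 and Iapp, near the top of the scale, made up most of the sums. The 6 endothelial markers had a median of 0.091, the 3 kept duct markers one of 0.17 and the 5 kept lymphocyte markers one of -0.14, while none of the 3 measured red blood cell markers reached the floor. The signals of all 24 poly-A spike controls were higher for the transgenic sample (median 1.51), and so were those of all 18 hybridisation controls (median 0.40). The arrays thus differed in their control signals, and what part this has in the differences of the genes was not tested. The 3' minus 5' difference of Actb, a sign of RNA integrity, was 1.21 in transgenic and 1.09 in control islets, and that of Gapdh ran the other way, at 0.55 and 0.68. In such mixed tissue, fewer cells of a type and less RNA per cell cannot be told apart.

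Members were found on both sides of no difference. Of the 29 kept, 16 had a positive difference (55.2%, beside 54.2% of all 12143 genes kept) and 13 a negative one. The median was 0.015, beside 0.029 over all genes kept. No member differed 2-fold in either direction, where 2.51% of all genes were 2-fold higher or more and 0.511% 2-fold lower or more. At 1.5-fold, 1 of 29 was higher (3.45%, beside 7.73% of all genes) and 2 were lower (6.90%, beside 3.14%). With 29 genes a single one moves the share by 3.45 percentage points, and nothing is read from these shares. The member furthest higher was Prdx3, and those furthest lower were Gpx2 and Mt1. Macrophage and stellate cell markers (medians 0.82 and 0.89) were higher in the same sample as Prdx3, Nqo1 and Cat, and their part in the members' differences was not tested. The differences were also about as wide as elsewhere, since 48.3% of the members and 50.6% of all genes lay within 0.2 of no difference. The median size of the difference was 0.24 for members and 0.20 for all genes.

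**Figure D1:**
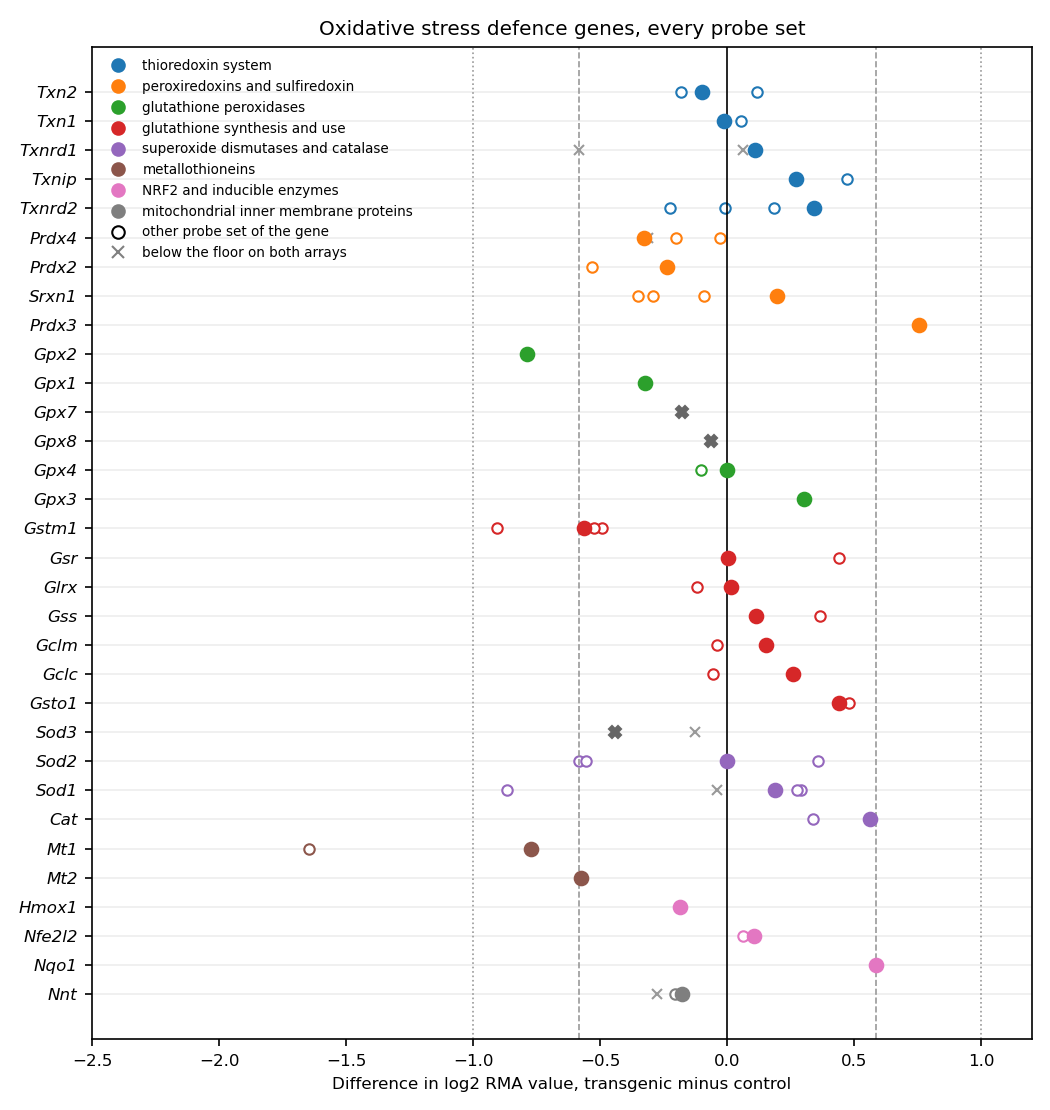
Differences in log2 RMA value, transgenic minus control (horizontal axis), for every probe set of the 32 measured genes, by system (colour). Filled circles are the probe set with the highest mean, open circles the other probe sets of the gene, crosses probe sets below the floor on both arrays; dashed and dotted lines mark 1.5-fold and 2-fold. Both metallothioneins, Gpx2 and all 4 Gstm1 probe sets lie to the left, and Prdx3 at 0.75 lies furthest right. By the chosen probe set, 14 of the 29 kept members lie within 0.2 of 0.

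Counted by probe set, more members were past the size rules on the lower side, though again few. Of the 62 member probe sets that reached the floor, 1 was at least 2-fold lower (1.61%, beside 0.784% of all probe sets) and none was 2-fold higher (2.15% of all). At 1.5-fold, 5 were lower (8.06%, beside 4.15%) and 1 was higher (1.61%, beside 6.97%). The 5 were 2 of Mt1 and 1 each of Gpx2, Gstm1 and Sod1, and those of 1 gene share its RNA. Among the 21 members with at least 2 probe sets at the floor, 12 had all of them on the same side. Txnip, Gss, Gsr, Gsto1, Cat and Nfe2l2 were higher by every such probe set. Prdx2, Prdx4, Gpx4, Gstm1, Mt1 and Nnt were lower by every one, although the probe sets of Gpx4 lay within 0.11 of no difference. Of the members' other probe sets, 21 of 33 had the sign of the chosen one (63.6%), beside 66.4% over all kept genes.

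The metallothioneins, small cysteine-rich proteins that bind zinc and copper and scavenge radicals, were lower by each of their 3 probe sets. Mt1 read 13.64 in transgenic and 14.41 in control islets, a difference of -0.77 or 1.71-fold lower. Its other probe set read 7.46 against 9.11, a difference of -1.65 or 3.13-fold lower, the one member probe set past 2-fold. The probe sets share the direction but not the size. The one with the smaller difference lies near the top of the scale, and what sets the size apart was not tested. Mt2 read 13.12 in transgenic and 13.70 in control islets, 1.49-fold lower and just short of 1.5-fold. Its difference was -0.58, and it passed 1.5-fold with a lowess trend subtracted (-0.60) or after a second quantile normalization (-0.62). Of all kept genes, 1.15% had a lower difference than Mt1 and 3.25% a lower one than Mt2. Beta cell, acinar and lymphocyte markers had medians of -0.0083, 0.094 and -0.14, and the beta cell markers ran from -0.81 (Ucn3) to 0.32 (Pdx1). The part of these cells in the lower metallothionein values was not tested. Mt1 and Mt2 are neighbours on chromosome 8, where Mt3, Mt2 and Mt1 follow one another among protein-coding genes.

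Zinc induces both genes through the transcription factor MTF-1, which binds the metal response element. Their promoter windows, 250 bases before to 50 after the annotated start, are shown because the genes lie side by side and differed the same way. The sequences are from RefSeq (GRCm38.p6), plus strand, at chr8:94178839-94179138 (Mt1) and chr8:94172368-94172667 (Mt2). Capitals mark the core of the metal response element, searched as TGCACNC or TGCGCNC on both strands.
Mt1: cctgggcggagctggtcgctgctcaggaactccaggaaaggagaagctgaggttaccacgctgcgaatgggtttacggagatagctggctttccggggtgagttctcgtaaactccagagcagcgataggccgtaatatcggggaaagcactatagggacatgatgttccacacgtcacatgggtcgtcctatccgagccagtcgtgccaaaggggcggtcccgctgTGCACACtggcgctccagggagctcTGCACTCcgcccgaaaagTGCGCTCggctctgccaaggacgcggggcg
Mt2: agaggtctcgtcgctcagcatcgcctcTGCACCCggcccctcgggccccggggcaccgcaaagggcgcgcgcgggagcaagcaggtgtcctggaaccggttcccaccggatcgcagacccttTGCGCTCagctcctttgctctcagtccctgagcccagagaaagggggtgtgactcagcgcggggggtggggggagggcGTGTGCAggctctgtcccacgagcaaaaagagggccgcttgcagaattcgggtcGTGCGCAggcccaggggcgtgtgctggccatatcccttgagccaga

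The Mt1 window held 3 of these words and the Mt2 window 4. Of all 32851 windows of the same length, 1.97% held at least 3 and 0.517% at least 4, while 25.7% held at least 1. The words are a description of these windows and not sites of binding. Among the 30 members with a window in the table, 10 held the word, and the 9 of them that were kept ran from -0.77 (Mt1) to 0.34 (Txnrd2), 5 positive and 4 negative. By the chosen probe sets the word thus went with both directions. Of the positive genes, however, Glrx, Gclm, Srxn1 and Txnrd2 also had probe sets with a negative difference, and only Txnip had none. Mt1, Mt2, Gstm1 and Prdx4 were negative by every probe set at the floor. The part of the word in these differences was not tested.

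Other genes of metal handling were read from a list of 14. None of the 13 kept passed 1.5-fold, 8 were negative and 5 positive, and the median was -0.10. The brain-type metallothionein gene Mt3 was the furthest lower, at 6.28 in transgenic and 6.83 in control islets, a difference of -0.56. Atp7a, a copper pump, was the furthest higher at 0.25. The zinc exporter gene Slc30a1, itself induced by MTF-1, stood at -0.45 with its other probe set at -0.29. Mtf1 stood at -0.40, but its 3 others ran from -0.23 to 0.41, with 1 of opposite sign, so its direction depended on the probe set. Slc30a1 and Mtf1 were named after their values were seen. Slc30a8, which loads zinc into insulin granules, stood at -0.087.

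In the thioredoxin system 3 of the 5 kept genes were positive, none passed 1.5-fold and the median was 0.11. Txnip read 9.60 in transgenic and 9.33 in control islets, 1.21-fold higher, and its other probe set read 7.26 against 6.79, a difference of 0.47. Both probe sets were thus higher in the transgenic sample, by less than 1.5-fold. Of all kept genes 77.9% had a lower difference than the first of these. Txn1, the thioredoxin of the cytosol, read 11.56 and 11.57, transgenic first, and Txn2, that of mitochondria, 9.40 and 9.50. The reductases Txnrd1, of the cytosol, and Txnrd2, of mitochondria, had differences of 0.11 and 0.34. Txnrd1 read 10.92 against 10.81, and its other probe sets were below the floor. The values of Txnrd2 were 7.87 in transgenic and 7.53 in control islets, and its other 3 probe sets lay between -0.22 and 0.18, so its direction depended on the probe set.

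Txnip belongs to the alpha-arrestins and is induced with its relative Arrdc4 by the glucose sensors ChREBP (Mlxipl) and MondoA (Mlxip). Of 9 listed relatives and regulators 8 were kept, 4 positive and 4 negative, with a median of -0.013 and none past 1.5-fold. Arrdc3 was the furthest higher at 0.52 (9.74 in transgenic and 9.22 in control islets) and Arrdc1 the furthest lower at -0.42. Arrdc4, named after its value was seen, read 8.11 and 7.65, a difference of 0.47, while its other probe set stood at -0.007. Mlxipl stood at 0.12. Other thioredoxin-like and repair proteins had a median of 0.022 over 17 genes, with 2 at least 1.5-fold higher (beside 7.73% of all kept genes). These were Msrb3, a methionine sulfoxide reductase (6.67 against 5.82), and Sesn2, a sestrin and p53 target (9.07 against 8.35). The control value of Msrb3 lay just above the floor, and the other probe set of Sesn2 stood at 0.27. Txndc12 was the furthest lower at -0.46.

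Peroxiredoxins reduce peroxide in the separate compartments of the cell, and the 3 measured did not share a direction. Prdx3, of mitochondria, read 10.19 in transgenic and 9.44 in control islets, a difference of 0.75 or 1.69-fold higher, by its single probe set. Of all kept genes 95.4% had a lower difference. Prdx4, of the endoplasmic reticulum, read 10.06 against 10.39, 1.25-fold lower, with further probe sets at the floor at -0.20 and -0.03. Prdx2, of the cytosol, read 11.04 against 11.28, with the other probe set at -0.53. Thus, of these 3 genes, Prdx3 was higher and Prdx2 and Prdx4 were lower. The 5 members grouped as mitochondrial (Txn2, Txnrd2, Prdx3, Sod2 and Nnt) were split, 2 positive and 3 negative, with a median of -0.0006. Srxn1, which repairs overoxidised peroxiredoxins, read 10.10 in transgenic and 9.91 in control islets, but its 3 further probe sets ran from -0.35 to -0.09. Prdx1 was read only by 5 probe sets that carry several symbols, and Prdx5 and Prdx6 by none that could be named here, so no value is given for them.

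**Figure D2:**
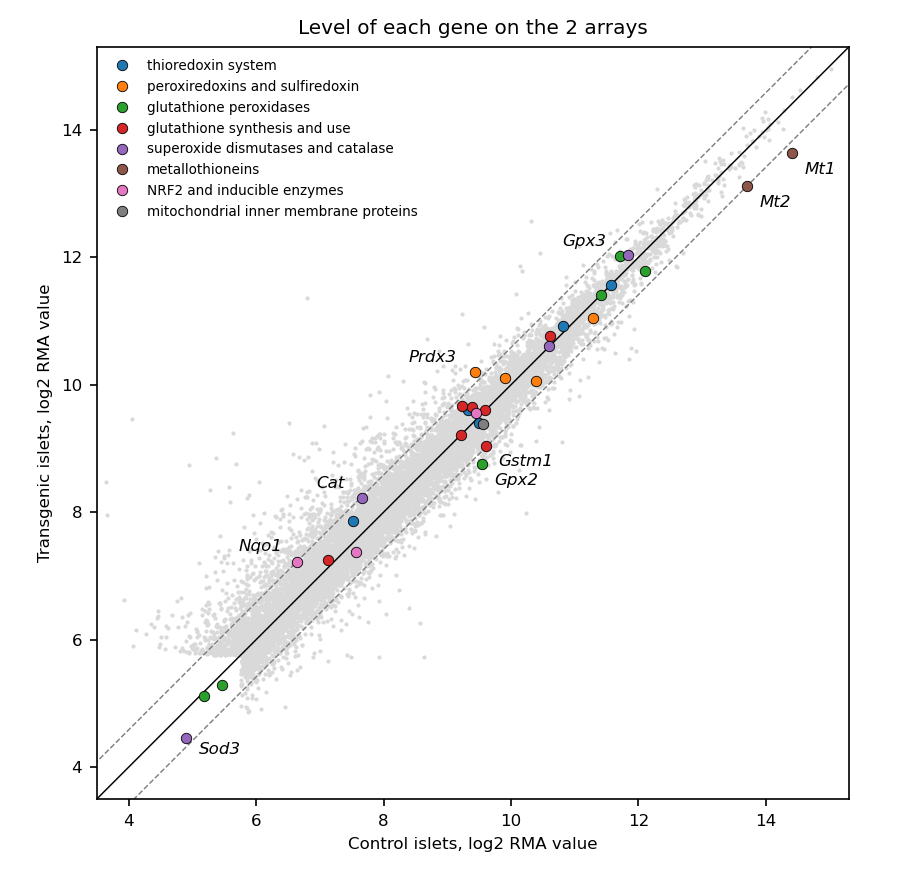
Log2 RMA values of the control (horizontal axis) and the transgenic sample (vertical axis) for the 32 measured genes, coloured by system, over all 12143 kept genes in grey. The solid line marks equal values and the dashed lines 1.5-fold; Mt1 and Gpx2 lie below the lower dashed line and Prdx3 above the upper one, and Gpx7, Gpx8 and Sod3 lie below the floor of 5.76 on both axes.

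The glutathione peroxidases were split. Gpx2, the gastrointestinal form, read 8.75 in transgenic and 9.54 in control islets, a difference of -0.79 or 1.73-fold lower. It was the furthest lower by the chosen probe sets, close to Mt1 at -0.77, but Mt1 was lower than Gpx2 with a lowess trend subtracted (-0.80 against -0.79), with probe sets averaged (-1.21) and without the _s, _x and _a probe sets, which can match several transcripts (-1.65). Of all kept genes 1.07% had a lower difference. Gpx1, the form found in most cells, read 11.78 against 12.10, 1.25-fold lower. Gpx3, the secreted form, was higher at 12.02 against 11.72, a difference of 0.30. Gpx4, which reduces lipid peroxides, read 11.41 on both arrays. Gpx7 (5.29 and 5.46) and Gpx8 (5.12 and 5.18), both of the endoplasmic reticulum, were below the floor on both arrays, so only a bound on their level is known. Each of these genes except Gpx4 had a single probe set.

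Of the genes that make and use glutathione 6 of 7 were positive, beside 54.2% of all kept genes, with a median of 0.11, and none passed 1.5-fold. Gclc and Gclm, the catalytic and modifier subunits of the rate-limiting enzyme of glutathione synthesis, had differences of 0.26 and 0.15. Gclc read 9.65 in transgenic and 9.39 in control islets and Gclm 10.76 and 10.61. The other probe set of each had a difference just below 0, at -0.06 and -0.04. Gss, the second enzyme of the synthesis, read 7.24 against 7.13, and its 2 probe sets had differences of 0.11 and 0.37. Gsr, which recharges oxidised glutathione, read 9.22 on both arrays, and its other probe set stood at 0.44. Glrx, a glutaredoxin, read 9.60 in transgenic and 9.59 in control islets, and its other probe set stood at -0.12, so its direction depended on the probe set. Gsto1, an omega-class transferase, was the furthest higher at 9.67 against 9.23, 1.36-fold, and its other probe set stood at 0.48.

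Gstm1, a transferase that couples glutathione to electrophiles, was the one gene of this system on the lower side. It read 9.05 in transgenic and 9.61 in control islets, a difference of -0.57 or 1.48-fold lower, and its other 3 probe sets stood at -0.49, -0.52 and -0.91. The Gstm genes are related in sequence and lie in a cluster, in which Gstm2, Gstm1 and Gstm4 follow one another, so probes may share signal. Gstm2 was the furthest lower of the related transferases, at 7.36 against 8.05, a difference of -0.69. Gstm4, named after its value was seen, stood at 0.44 and Gstm5 at 0.058, so these neighbours and relatives differed in sign.

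Across 24 further transferases and glutaredoxins, 17 were kept, 9 positive and 8 negative, with a median of 0.046. Gsta4, which detoxifies the lipid peroxidation product 4-hydroxynonenal, was 3.57-fold higher, at 6.66 in transgenic and 4.82 in control islets. The control value is below the floor, so the background limits this fold. Mgst1, a microsomal transferase, followed at 8.51 against 7.70, and Gstm2 was the only kept one at least 1.5-fold lower. Genes of glutathione turnover and cystine supply had a median of -0.18 over 10 kept genes, 7 of them negative and none past 1.5-fold. Cbs, an enzyme of the pathway that supplies cysteine, was the furthest lower at -0.55 (other probe set -0.44), and Cth, the next enzyme of that pathway, the furthest higher at 0.41. Slc7a11, the cystine importer, was below the floor on both arrays.

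The differences of the superoxide dismutases depended on the probe set. Sod1, of the cytosol, read 12.03 in transgenic and 11.84 in control islets, a difference of 0.19. Of its 3 further probe sets at the floor, 2 stood at 0.28 and 0.29 and 1 at -0.87. Sod2, of mitochondria, read 10.60 on both arrays, and its other probe sets stood at 0.36, -0.56 and -0.58. Sod3, the extracellular form, was below the floor on both arrays at 4.46 and 4.90. No direction is given for Sod1 or Sod2. For catalase, the enzyme of peroxisomes, both probe sets were higher. Cat read 8.22 in transgenic and 7.66 in control islets, a difference of 0.56 or 1.48-fold higher, and its other probe set read 7.79 against 7.45.

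NRF2, encoded by Nfe2l2, is the factor that switches on many of these genes through the antioxidant response element when its inhibitor Keap1 is modified by electrophiles. Nfe2l2 read 9.56 in transgenic and 9.45 in control islets, a difference of 0.11. Nqo1, a quinone reductase and standard target of NRF2, read 7.23 against 6.64, a difference of 0.58 that lay just under the 1.5-fold line. Hmox1, heme oxygenase, was lower, at 7.38 against 7.56. These targets of NRF2 therefore differed in sign, and so did the target genes described above (0.26 for Gclc, 0.15 for Gclm and 0.11 for Txnrd1, whose sign changed when probe sets were averaged, and -0.57 for Gstm1). Of 28 further genes of NRF2 control and targets, 24 were kept, 10 positive and 14 negative, with a median of -0.082 and none past 1.5-fold either way. Abcc4, a drug exporter, was the furthest higher at 0.36 and Mafg, a DNA-binding partner of NRF2, the furthest lower at -0.25. Keap1 stood at -0.20.

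The promoter windows of the members were searched for the core of the antioxidant response element, TGACNNNGC, on both strands. The word overlaps the AP-1 site in Mt2 and Prdx1. It was found for 8 of the 30 members with a window, or 26.7%, beside 14.0% of all 27025 genes and 12.4% of all windows. The 6 of these that were kept are shown because they are the members to which the values above can be tied, with 10 bases on either side, on the strand that reads the word, and the word in capitals (RefSeq, GRCm38.p6). The stretches lie at chr2:75704885-75704913, minus strand (Nfe2l2), chr2:152105542-152105570, minus (Srxn1), chr3:122245413-122245441, minus (Gclm), chr8:94172529-94172557, plus (Mt2), chr10:82859104-82859132, minus (Txnrd1) and chr16:90220696-90220724, minus (Sod1).
Nfe2l2: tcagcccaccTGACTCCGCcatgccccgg
Srxn1: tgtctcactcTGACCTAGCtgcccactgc
Gclm: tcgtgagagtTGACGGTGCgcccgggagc
Mt2: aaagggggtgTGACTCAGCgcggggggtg
Txnrd1: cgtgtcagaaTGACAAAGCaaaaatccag
Sod1: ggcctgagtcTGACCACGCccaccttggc

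Of these 6 genes, 5 had a positive difference, of 0.11 to 0.20, and Mt2 a negative one, although Sod1, Srxn1 and Txnrd1 changed sign under another choice of probe sets. Of the 19 kept members whose window lacks the word, 9 were positive and 10 negative. Each of the 5 positive differences was smaller than 0.28, the median gap between the highest and the lowest probe set of a gene on these arrays. Nqo1 has no such word in its 300-base window, which says nothing of the sequence outside it. Hmox1, Gclc, Gsr, Nnt, Prdx6 and Sod3 were not matched in the promoter table.

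**Figure D3:**
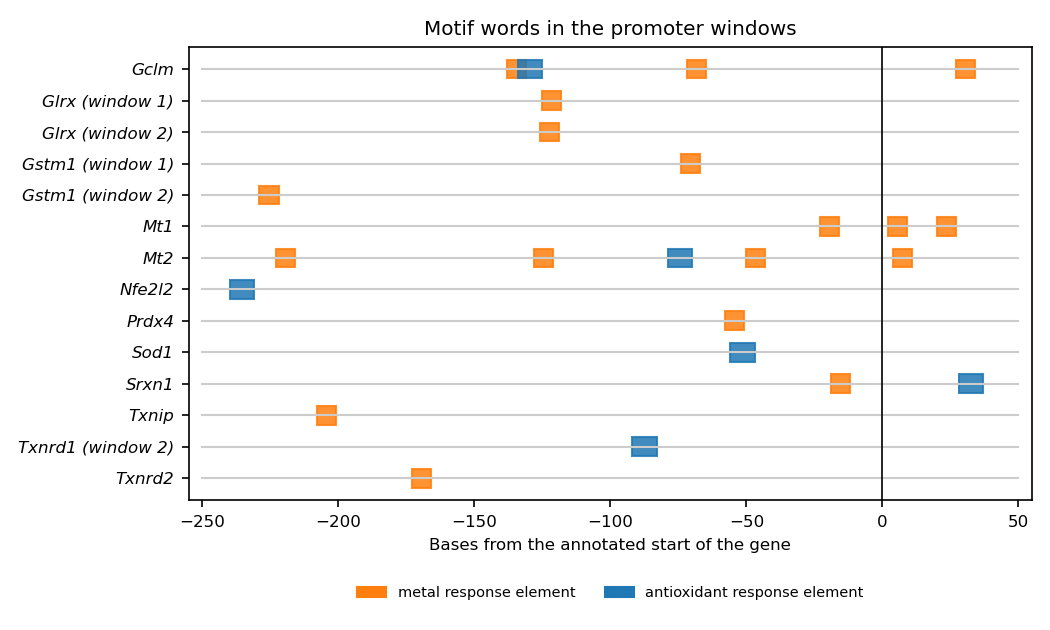
Position of the words of the metal response element (orange) and the antioxidant response element (blue) in the 300-base promoter windows of kept members, in bases from the annotated start of the gene (horizontal axis), 1 line per window that holds a word. Mt1 holds 3 metal response words, which begin at -23, 2 and 20, and Mt2 holds 4, which begin at -223, -128, -50 and 4.

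NADPH recharges both glutathione and thioredoxin. Nnt, the transhydrogenase of the inner mitochondrial membrane, makes it there, and a C57BL/6 substrain carries a deletion in this gene. Nnt read 9.38 in transgenic and 9.56 in control islets, 1.13-fold lower, and its other probe set at the floor stood at -0.21. The position of these probes relative to the deletion was not used here, so the values do not tell the substrain. Ucp2, an uncoupling protein that lowers peroxide production, was not read by a probe set that could be named here. Of 13 kept genes of NADPH supply, 7 were positive and 6 negative, with a median of 0.088. At least 1.5-fold lower were 2, beside 3.14% of all kept genes. Mthfd2 was 2.00-fold lower, at 9.92 against 10.92, with its other probe set at -0.31, and Aldh1l2 stood at -0.71, both mitochondrial enzymes of folate metabolism. Of the enzymes of the pentose phosphate pathway, a main source of NADPH in the cytosol, Pgd stood at 0.21, Pgls at 0.088, Taldo1 at 0.23 and Tkt at -0.04 (named after their values were seen). Me2, the mitochondrial malic enzyme, was the furthest higher at 0.28.

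Sources of superoxide and peroxide were read from a list of 21, of which 11 were kept, with a median of 0.22. A positive difference was seen for 9 of them, beside 54.2% of all kept genes. At least 1.5-fold higher were 3, beside 7.73% of all kept genes. Cyba and Cybb encode the membrane subunits of the NADPH oxidase of phagocytes. Cyba was the furthest higher at 8.45 against 7.65, a difference of 0.81, and Cybb stood at 0.51 (named after its value was seen). The kept genes of the cytosolic subunits, Ncf1, Ncf4 and Rac2, stood at 0.22, 0.036 and 0.20. The macrophage markers, which had a median of 0.82, were higher in the same sample, and their part in this result was not tested. Noxo1, an organiser of epithelial NADPH oxidase, read 6.84 against 6.12 and Xdh, xanthine dehydrogenase, 6.33 against 5.64 with the control value below the floor. Maoa, a monoamine oxidase, was the furthest lower at -0.44, with its other probe set at 0.025. Nos2, the inducible nitric oxide synthase, was below the floor on both arrays.

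Several members are selenoproteins, which need dedicated factors to insert selenocysteine, among them Gpx1, Gpx2, Gpx3, Gpx4, Txnrd1 and Txnrd2. Of 18 kept further selenoproteins and insertion factors 9 were positive and 9 negative, with a median of -0.0035 and none past 1.5-fold. Sepsecs, which makes the selenocysteine of the transfer RNA, was the furthest higher at 0.37, and Pstk, the kinase of the step before, the furthest lower at -0.52. Mitochondrial carriers and regulators had a median of -0.088 over 9 kept genes. Sirt3, the mitochondrial deacetylase that acts on Sod2, was the furthest higher at 8.16 against 7.59, and Slc25a14 the furthest lower at -0.39. Over all 10 related lists together 140 genes were kept, 70 positive and 70 negative. Of these, 7 were higher and 3 lower by 1.5-fold or more, beside 7.73% and 3.14% of all kept genes.

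**Figure D4:**
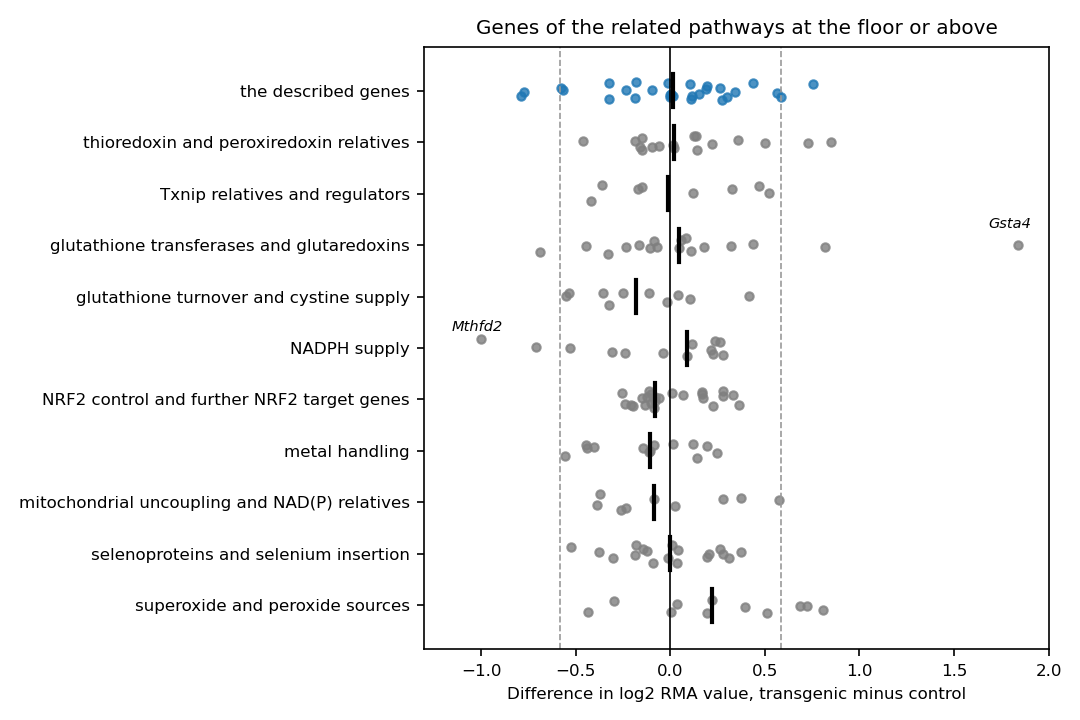
Differences in log2 RMA value, transgenic minus control (horizontal axis), for the 29 kept members (blue) and the kept genes of the 10 related lists (grey), 1 point per gene, spread vertically for legibility; black bars are medians and dashed lines 1.5-fold. The medians lie between -0.18 and 0.22, with Gsta4 and Mthfd2 as the furthest genes.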

How the data were processed

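Total RNA of islets was biotin-labelled and read on Affymetrix mouse arrays, 1 per genotype. The deposited values are log2 values per probe set, which the authors made with RMA in Affymetrix Expression Console, per the submitters' processing notes; the sources used here do not give their versions. The sorted values of both columns differed by at most 0.10. Probe sets were named through the platform annotation: of 45101, 64 were array controls, 34945 had 1 symbol, 932 several and 9160 none. Symbols were updated by Entrez Gene identifier to GRCm38.p6 names (34741 matched), and member names were the same before and after. The annotation can be old, and the array files name no genome build, so no gene coordinates come from them.

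The members and lists were chosen with earlier results of these data known. Size rules were 2-fold and 1.5-fold. Full values are given for members past 1.5-fold or furthest in their system and for Txnip, Nfe2l2, Sod1, Sod2, Cat, Hmox1, Nqo1 and Nnt. Of each related list the counts, the furthest gene each way and up to 4 genes past 2-fold are named, and any other gene of these lists was named for its role after its value was seen. Gene selection and size rules were tested on simulated data, in which every probe set of a gene was given the same shift. Apart from small random noise, disagreement between the probe sets of a gene was not simulated. Summed linear signals add 2 to the power of each kept gene's value. Promoter windows and microRNAs came from RefSeq tables, which held 30 of 36 members. Python 3.11.15, numpy 2.4.6, pandas 2.3.3, statsmodels 0.14.6 and matplotlib 3.10.9 were used.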

Additional observations from a re-analysis of the deposited data

How the results depend on the processing

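No paired analysis was possible because each genotype has 1 array, and leaving out an array leaves no comparison. The alternatives were the mean over probe sets, no _s, _x or _a probe sets, no floor or one at the 75th percentile (7.81), a lowess trend subtracted (span 0.3), a second quantile normalization, and every probe set counted. The count of members at least 2-fold lower was 1 instead of 0 with probe sets averaged, without the _s, _x and _a probe sets, or with every probe set counted, and the gene was Mt1 each time. Members at least 1.5-fold lower were 5 instead of 2 with every probe set counted, and 3 with probe sets averaged (Gstm1 at -0.62 being the addition), with the lowess trend subtracted or after the second quantile normalization (Mt2 at -0.60 and -0.62). Counts of higher members did not change under these settings, and the members' median ran from -0.052 to 0.015. Only 25 of the 29 kept members had a value without the _s, _x and _a probe sets, and 26 with the higher floor. Of the 29, 23 kept their sign under every gene-level alternative in which they had a value. Glrx, Gsr, Sod1, Srxn1, Txn1 and Txnrd1 did not. Among the 23, the chosen probe sets of Gpx4 and Sod2 had almost no difference. A kept sign also does not mean that the probe sets agreed, since those of Gclc, Gclm, Sod2, Txn2 and Txnrd2 differed in sign. Of the 15 that differed by more than 0.2, all 15 kept their sign. This outcome was partly fixed, because moving the floor leaves a gene's difference as it was. Averaging or dropping probe sets also cannot change the difference of a gene with a single one, such as Gpx1, Gpx2, Gpx3, Mt2, Nqo1 or Prdx3.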
